A study of Homo sapiens with 6 samples.

Results

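Matrix metalloproteinases (MMPs) and tissue inhibitors of metalloproteinases (TIMPs) were compared in 3 human cell lines. The set holds the 10 genes MMP1, MMP2, MMP7, MMP9, MMP10, MMP14, MMP15, TIMP1, TIMP2 and TIMP3, taken by symbol from the 23368 rows of each expression table. Each line had 2 RNA sequencing libraries, one labelled at 25M reads and one deeper. MCF10A, a non-tumorigenic mammary epithelial line, was untreated and grown in horse serum with EGF, hydrocortisone, cholera toxin and insulin. HT-29, a colon adenocarcinoma line, was grown in fetal bovine serum, and both of its libraries are labelled as treated with IFN-γ, an interferon, at 200 U per ml for 24 hours. MDA-MB-436, a breast adenocarcinoma line, was untreated and grown in fetal bovine serum without added CO2. The title of the deeper MCF10A library gives 100M reads and its sample type 50. Medium, treatment and line changed together, so their parts in any difference cannot be told apart.

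MMPs are zinc endopeptidases that cut collagens, laminins and other matrix and surface proteins. Most are made as inactive proenzymes, and a removed prodomain turns them on. TIMPs bind the active site of MMPs, and TIMP2 also carries proMMP2 to MMP14 at the cell surface, where it is activated. In epithelia, MMP7 is typical of intestinal and glandular cells, while MMP1, MMP2 and MMP9 are widely studied in invasion. RNA levels, the quantity measured here, do not show how much enzyme is active.

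The labels of the carcinoma libraries were checked first. KRT20, an intestinal keratin, had normalised counts of 29900 and 30880 in the MDA-MB-436-labelled libraries and at most 0.547 in those labelled HT-29. VIL1, the microvillus protein villin, was at 2055 and 2198 in the MDA-MB-436-labelled libraries and at 0 in the other 4. VIM, vimentin of mesenchymal cells, was at 16.5 and 7.39 there but at 36599 and 35267 in the HT-29-labelled libraries. The intestinal regulator CDX2 was at 194 and 182 in the MDA-MB-436-labelled libraries and at 0 elsewhere. IRF1 and GBP1, targets of interferon, were also highest in the MDA-MB-436-labelled libraries, at 79637 and 79442 for IRF1 and at 63596 and 62679 for GBP1. In the HT-29-labelled libraries, IRF1 was at 2234 and 2194 and GBP1 at 1734 and 1749, above MCF10A, where IRF1 was at 393 and 414 and GBP1 at 89.9 and 90.8. The 10 genes of the IFN-γ response list were called higher than in MCF10A in both carcinoma groups, and lower in the HT-29-labelled libraries than in those labelled MDA-MB-436. Over all tested genes, 25.6% (labelled MDA-MB-436) and 28.4% (labelled HT-29) were called higher than in MCF10A. In the HT-29-labelled libraries, 23.5% were called lower than in those labelled MDA-MB-436. KRT20, VIL1, CDX2 and VIM thus go against both labels, while IRF1 and GBP1 were raised in both groups and highest in the one labelled without IFN-γ. MCF10A held its basal keratin KRT5 at 424101 and 416184, and the epithelial cadherin CDH1 at 5307 and 5324. Every direction below is for the libraries as labelled. An exchange of the labels would swap the comparisons with MCF10A and turn the sign of the third comparison.

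The members high in each line differed. MMP14 and TIMP3 were high in MCF10A, MMP2 in the HT-29-labelled libraries, and MMP7 and MMP15 in those labelled MDA-MB-436. TIMP1 and TIMP2 were found at 1593 or more in all 6 libraries and differed least between the lines among the tested members. MMP9 and MMP10 were near the detection limit throughout. The plot of members by library shows these levels.

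**Figure D1:**
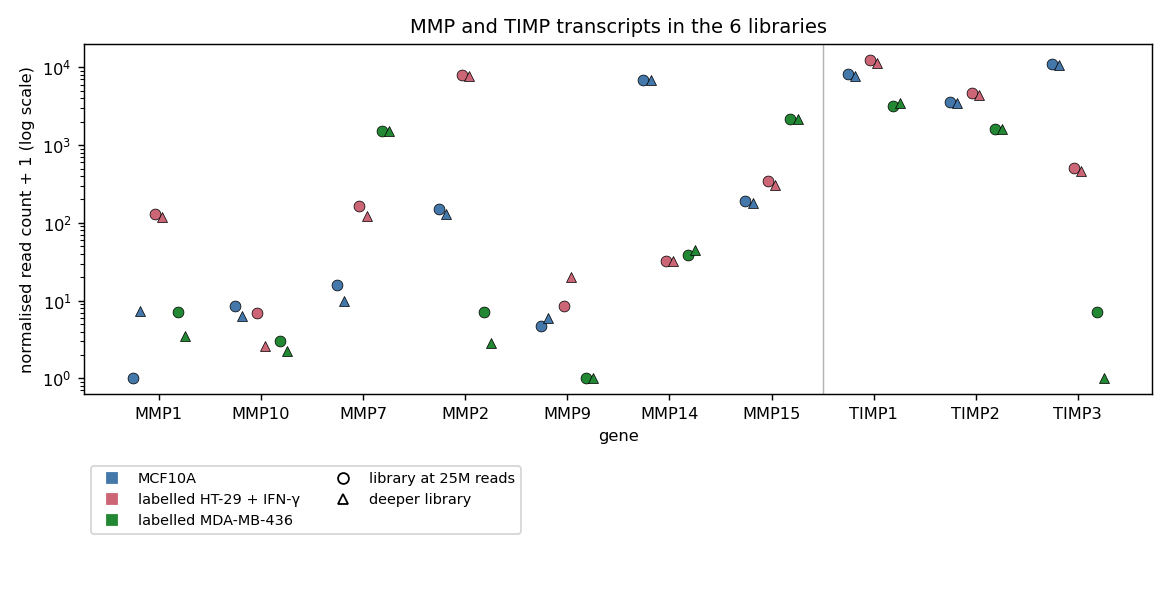
Normalised count plus 1, on a log scale, of the 10 genes in each of the 6 libraries; colours mark the labelled line, circles the 25M library and triangles the deeper one. The libraries of a line lie close together except near 0, where MMP1, MMP9, MMP10 and the MDA-MB-436 values of MMP2 and TIMP3 scatter.

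Of the 10 members, 8 reached a normalised count of 10 in at least 2 libraries and were tested with 15638 genes in all. A gene was called when its Benjamini-Hochberg adjusted p from limma was below 0.05 and its log2 fold change was at least 1 in size. Of the tested members, 4 reached the minimum in all 3 lines, 3 in a pair of lines and MMP1 in the HT-29-labelled libraries alone, so such members had to differ somewhere. In the MDA-MB-436-labelled libraries against MCF10A, 2 members were higher and 5 lower, where 25.6% of all tested genes were called higher and 23.7% lower, 49.2% in all. In those labelled HT-29 against MCF10A, 3 were higher and 2 lower, against 28.4% and 18.1% of all genes, 46.5% in all. Between the carcinoma lines, 5 were higher and 2 lower in the HT-29-labelled libraries, against 29.9% and 23.5%, 53.4% in all. With calls this common among all genes, counts of members say little, and the size of each member's difference follows. The members' median log2 fold changes were -1.21, 0.68 and 1.67 in the 3 comparisons, beside 0.00, 0.13 and 0.09 over all tested genes. The libraries of a line are not described as separate cultures, so the p-values measure only the spread between libraries, which may be technical.

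**Figure D2:**
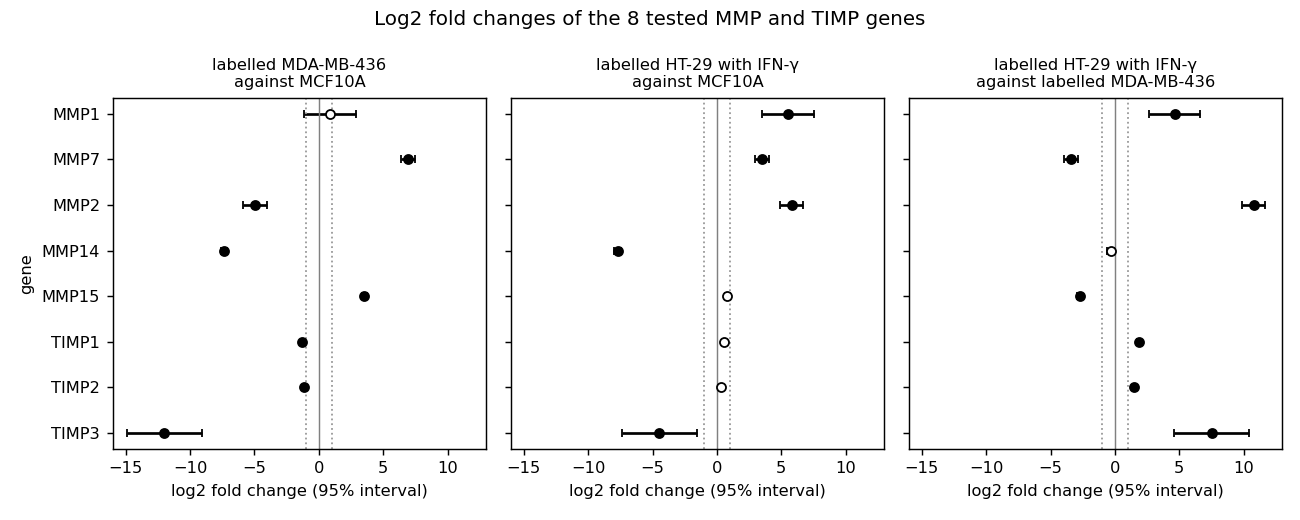
Log2 fold changes on the log2(normalised count + 1) scale of the 8 tested members in the 3 comparisons, with 95% confidence intervals; filled circles passed the test and the fold minimum, and open circles did not. Dotted lines mark a log2 fold change of 1 in each direction; MMP2 spans from -4.97 to 10.77 and TIMP2 from -1.14 to 1.49.

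MMP2, gelatinase A, cuts denatured collagen and type IV collagen. It was at 152 and 131 in MCF10A, at 7982 and 7752 in the HT-29-labelled libraries, and at 6.18 and 1.85 in those labelled MDA-MB-436. The 3 lines did not overlap, and the MDA-MB-436-labelled libraries held only 6 reads in all. MMP2 was 57.9-fold higher in the HT-29-labelled libraries than in MCF10A (ratio of pooled reads, 95% counting interval 52.1 to 64.6), or 5.79 on the log2 scale (SE 0.381, adjusted p = 4.77e-06). It was 47.5-fold lower in the MDA-MB-436-labelled libraries than in MCF10A (interval 21.6 to 130.2), or -4.97 on the log2 scale (SE 0.381, adjusted p = 1.05e-05). Against those same libraries the ones labelled HT-29 were 2747-fold higher (interval 1262 to 7486), a log2 fold change of 10.77 (adjusted p = 1.26e-07). Without the MDA-MB-436-labelled 25M library the fall from MCF10A was -5.64, and without the deeper one -4.30.

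MMP9, gelatinase B, shares these substrates. It was at 3.75 and 4.91 in MCF10A, at 7.50 and 19.2 in the HT-29-labelled libraries, and had 0 reads in both libraries labelled MDA-MB-436. These levels did not pass the minimum, and the gene was left out of the main test. The ratio of pooled reads between the HT-29-labelled libraries and MCF10A was 3.44 (interval 1.77 to 7.19). With its 0 reads set to a floor of 3 over the group, MMP9 was 11.3-fold lower in the MDA-MB-436-labelled libraries than in those labelled HT-29. Neutrophils and macrophages are known sources of MMP9; the summed level of 8 leukocyte markers was 721 to 784 in MCF10A, 4297 to 4652 in the HT-29-labelled libraries and 696 to 733 in those labelled MDA-MB-436. CD68 and ITGAM, of macrophages and other myeloid cells, were higher in the HT-29-labelled libraries than in MCF10A (log2 fold changes 2.71 and 4.14, adjusted p = 7.62e-09 and 3.96e-06), and CSF1R was lower (-3.48). The defining marker PTPRC (CD45) was at 10.3 or less in all 6 libraries, and CD3E, MPO and ELANE were at 2.95 or less. Only 2 of the 8 markers were at 10 or more in both HT-29-labelled libraries, and CD3E was at 0 in both. The part of these markers in the MMP9 values was not tested.

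MMP1, interstitial collagenase, cuts fibrillar collagen. It was at 0 and 6.38 in MCF10A, at 128 and 118 in the HT-29-labelled libraries, and at 6.18 and 2.46 in those labelled MDA-MB-436. The HT-29-labelled libraries lay above the other 4, which overlapped. MMP1 was 23.8-fold higher than in MCF10A (interval 13.7 to 45.2; log2 fold change 5.51, adjusted p = 4.38e-04) and 36.2-fold higher than in the MDA-MB-436-labelled libraries (interval 17.4 to 90.9; log2 fold change 4.63, adjusted p = 0.00111). Against MCF10A the MDA-MB-436-labelled libraries gave a log2 value of 0.88 with an interval from -1.12 to 2.87 and an adjusted p of 0.366. That last value rests on 13 and 7 reads. It turned negative, to -0.57, without the 25M MCF10A library, and became a call at 2.32 (adjusted p = 0.00752) without the deeper one. The rise in the HT-29-labelled libraries over MCF10A was 4.06 without the 25M MCF10A library and 6.95 without the deeper one.

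MMP7 and MMP10 lie near MMP1 on chromosome 11. Their promoters are shown because they carry the same pair of motifs while their RNA levels differed greatly in the carcinoma libraries. RefSeq's promoter table (build GRCh38.p14) held 6 of the 10 members: MMP7, MMP10, MMP14, MMP15, TIMP1 and TIMP3. The 250 bases before the annotated start of MMP7 lie at chr11:102530748-102530997 and those of MMP10 at chr11:102780629-102780878, both on the minus strand. Sequences run 5′ to 3′ on the gene's strand. Capitals mark matches on either strand to TGANTCA (the motif of AP-1 factors), TATAAA (a core promoter element), GGGCGG (the GC box bound by Sp1) and CTTTGAA (the TCF/LEF motif), and no matches overlapped.
MMP7: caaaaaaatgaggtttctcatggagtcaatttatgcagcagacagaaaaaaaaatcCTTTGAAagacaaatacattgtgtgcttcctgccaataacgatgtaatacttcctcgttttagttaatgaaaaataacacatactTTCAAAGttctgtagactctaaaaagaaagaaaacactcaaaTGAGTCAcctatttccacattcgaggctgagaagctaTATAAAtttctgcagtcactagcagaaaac
MMP10: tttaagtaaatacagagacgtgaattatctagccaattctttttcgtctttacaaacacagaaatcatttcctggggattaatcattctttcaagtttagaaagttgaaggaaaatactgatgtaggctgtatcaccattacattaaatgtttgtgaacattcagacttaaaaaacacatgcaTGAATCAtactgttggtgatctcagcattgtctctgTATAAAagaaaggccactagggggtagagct
TGANTCA began 67 bases before the start in both, and TATAAA began 30 bases before it in MMP7 and 31 in MMP10. MMP7 also held CTTTGAA at 194 and, on the other strand, at 109 bases. Among 35116 promoter windows of this length, 6.57% held TGANTCA, 10.7% TATAAA and 3.80% CTTTGAA. Their GC content was 33.6% and 34.4%, under the median of 58.0% over all windows. A match describes letters only.

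MMP7, matrilysin, is a small secreted protease of glandular epithelium. It was at 14.98 and 8.84 in MCF10A, at 162 and 123 in the HT-29-labelled libraries, and at 1501 and 1529 in those labelled MDA-MB-436. The lines formed 3 separate steps. MMP7 was 150.6-fold higher in the MDA-MB-436-labelled libraries than in MCF10A (interval 102.6 to 230.9), or 6.92 on the log2 scale (SE 0.237, adjusted p = 4.16e-08). In the HT-29-labelled libraries it was 13.2-fold higher than in MCF10A (interval 8.85 to 20.5; log2 fold change 3.50, adjusted p = 2.78e-06) and 11.4-fold lower than in those labelled MDA-MB-436 (log2 fold change -3.41, adjusted p = 2.75e-06). MMP10, stromelysin-2, by contrast was at 7.49 and 5.40, 6.0 and 1.64, and 2.06 and 1.23 in the same order of libraries. It did not reach the minimum for testing, and the ratio between the HT-29-labelled libraries and MCF10A was 0.48 with an interval from 0.166 to 1.25. When genes with at least 1 read were all tested, MMP10 was lower in the MDA-MB-436-labelled libraries than in MCF10A (log2 fold change -1.496, adjusted p = 0.0370).

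MMP14, or MT1-MMP, is a transmembrane collagenase and the main activator of proMMP2. It was at 6949 and 6800 in MCF10A, at 31.5 and 31.7 in the HT-29-labelled libraries, and at 37.1 and 44.3 in those labelled MDA-MB-436. Both carcinoma groups lay far below MCF10A. MMP14 was 215.7-fold lower in the HT-29-labelled libraries (log2 fold change -7.72, SE 0.111, adjusted p = 9.67e-10) and 160.1-fold lower in those labelled MDA-MB-436 (log2 fold change -7.37, SE 0.111, adjusted p = 6.34e-10). Between the carcinoma lines the log2 difference of -0.35 (interval -0.61 to -0.09, adjusted p = 0.0179) was under the fold minimum. MMP2 and MMP14 RNA were thus not high in the same line.

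MMP15, or MT2-MMP, is a second transmembrane member. It was at 191 and 180 in MCF10A, at 345 and 303 in the HT-29-labelled libraries, and at 2141 and 2181 in those labelled MDA-MB-436. The order was the reverse of that of MMP14 between MCF10A and the MDA-MB-436-labelled libraries, where MMP15 was 11.9-fold higher (log2 fold change 3.54, SE 0.0776, adjusted p = 3.86e-09). The HT-29-labelled libraries were 1.73-fold above MCF10A, a log2 value of 0.80 (adjusted p = 2.56e-05) that was under the fold minimum. When libraries were scaled by their totals alone, that value was 1.11 and passed (adjusted p = 2.82e-06). That scaling moved the median of all genes by 0.30 in this comparison and turned 4442 higher and 2823 lower calls into 5376 and 1994. Between the carcinoma lines it moved the median by 0.32 and turned 4675 and 3675 calls into 5617 and 2822. Both promoters are shown for their contrast in base composition, from chr14:22836335-22836584 for MMP14 and chr16:58025504-58025753 for MMP15, both on the plus strand.
MMP14: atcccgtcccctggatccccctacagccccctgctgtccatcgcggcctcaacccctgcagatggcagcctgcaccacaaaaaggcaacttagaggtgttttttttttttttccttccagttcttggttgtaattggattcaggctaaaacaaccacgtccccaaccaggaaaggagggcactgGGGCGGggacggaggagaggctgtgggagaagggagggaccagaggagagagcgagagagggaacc
MMP15: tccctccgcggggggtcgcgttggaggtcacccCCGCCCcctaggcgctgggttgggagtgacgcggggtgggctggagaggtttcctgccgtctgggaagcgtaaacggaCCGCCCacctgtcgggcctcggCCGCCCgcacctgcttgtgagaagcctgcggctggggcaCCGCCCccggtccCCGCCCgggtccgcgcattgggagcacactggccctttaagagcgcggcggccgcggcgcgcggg
MMP15 held 5 matches to GGGCGG on either strand and a GC content of 74.8%, and MMP14 held 1 match and 56.8%. GGGCGG was found in 42.6% of all windows, and neither promoter held TATAAA or TGANTCA.

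TIMP3 is the inhibitor that stays bound to the matrix, and it also inhibits ADAM and ADAMTS proteases. It was at 11016 and 10863 in MCF10A, at 512 and 459 in the HT-29-labelled libraries, and at 6.18 and 0 in those labelled MDA-MB-436. The 3 lines did not overlap, and the last value rests on 3 reads, all in the 25M library. TIMP3 was 23.0-fold lower in the HT-29-labelled libraries than in MCF10A (log2 fold change -4.49, SE 1.03, adjusted p = 0.0163). The libraries of each of these lines lay close together. This SE comes from the single fit, so it also carries the spread of the MDA-MB-436-labelled libraries (6.18 and 0). In those labelled MDA-MB-436 the ratio was 7661-fold lower (interval 2621 to 37150), or -12.00 on the log2 scale (SE 1.03, adjusted p = 5.76e-04), which was -13.42 without the 25M library and -10.57 without the deeper one. The HT-29-labelled libraries were 332.6-fold above those labelled MDA-MB-436 (interval 113.5 to 1615; log2 fold change 7.50, adjusted p = 0.00283), which was 8.92 without the MDA-MB-436-labelled 25M library and 6.08 without the deeper one. In that 25M library TIMP3 stood at 0.0565% of its MCF10A mean. KRT5 and KRT14, basal keratins of MCF10A, stood there at 0.0294% and 0.0380% of theirs, and their part in the TIMP3 value was not tested. SYN3, a gene on the opposite strand that overlaps TIMP3, was at 182 and 158 in MCF10A, 1.55% of the TIMP3 level. The promoter at chr22:32801455-32801704, plus strand, is shown for its 5 matches to GGGCGG and a GC content of 72.4%, since it belongs to the member with the widest range.
TIMP3: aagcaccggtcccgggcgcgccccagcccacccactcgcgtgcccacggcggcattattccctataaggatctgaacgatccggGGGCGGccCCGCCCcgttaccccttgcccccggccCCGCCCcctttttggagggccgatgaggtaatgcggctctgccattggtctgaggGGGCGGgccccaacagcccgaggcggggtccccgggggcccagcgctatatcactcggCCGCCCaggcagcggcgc
MMP15 and TIMP3 thus had alike windows by these measures, with 31 and 26 CpG dinucleotides, while their RNA was highest in different lines.

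TIMP1 and TIMP2 are secreted inhibitors of most MMPs. TIMP1 was at 8232 and 7831 in MCF10A, at 12466 and 11378 in the HT-29-labelled libraries, and at 3172 and 3455 in those labelled MDA-MB-436. TIMP2 was at 3608 and 3483, 4610 and 4399, and 1616 and 1593 in the same order. Both kept the same order of lines, and no library overlapped another line. TIMP1 was 2.33-fold lower in the MDA-MB-436-labelled libraries than in MCF10A (log2 fold change -1.28, SE 0.0555, adjusted p = 1.66e-07), and TIMP2 2.195-fold lower (log2 fold change -1.14, SE 0.0355, adjusted p = 2.42e-08). In the HT-29-labelled libraries the log2 values over MCF10A were 0.57 for TIMP1 and 0.34 for TIMP2 (adjusted p = 2.66e-05 and 3.69e-05), both under the fold minimum. Between the carcinoma lines TIMP1 was 3.44-fold and TIMP2 2.79-fold higher in the HT-29-labelled libraries, with log2 fold changes of 1.85 (adjusted p = 1.97e-08) and 1.49 (adjusted p = 5.79e-09). SYN1, which overlaps TIMP1 on the opposite strand, reached at most 0.518% of its level.

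To compare levels between genes, normalised counts were divided by the gene length in kilobases that the RPKM values imply. For some genes this length was well under that of the merged exons in GENCODE: 1737 against 2499 bases for MMP28 and 910 against 1459 for TIMP1. For MMP14 it was 3528 against 3732. The shares, ranks and ratios below, among them the order of MMP28 and MMP14, depend on these lengths and were not recomputed with others. Over 24 MMP genes the summed level per kilobase was 4614 and 4598 in MCF10A, 3114 and 2992 in the HT-29-labelled libraries, and 2543 and 2573 in those labelled MDA-MB-436. In MCF10A, MMP28, epilysin, and MMP14 made up 51.3% and 42.3% of it. In the HT-29-labelled libraries, MMP2 made up 74.9% and the transmembrane MMP16 5.87%. In those labelled MDA-MB-436, MMP7 made up 53.2%, the membrane-anchored MMP25 19.4%, MMP15 19.1% and MMP24 6.67%. Each line thus drew most of its MMP RNA per length from 1 or 2 genes. The TIMP sum, with TIMP4 included, was 12044 and 11541 per kilobase in MCF10A, 15477 and 14220 in the HT-29-labelled libraries, and 4086 and 4407 in those labelled MDA-MB-436. TIMP1 made up 74.8%, 88.2% and 85.8% of that sum in the 3 lines, and TIMP3 made up 16.9% in MCF10A. The ratio of TIMP to MMP level per kilobase was 2.61 and 2.51 in MCF10A, 4.97 and 4.75 in the HT-29-labelled libraries, and 1.61 and 1.71 in those labelled MDA-MB-436. With these lengths it exceeded 1 in all 6 libraries and did not overlap between lines. In bulk RNA, fewer cells that express a gene and less RNA per cell cannot be told apart.

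**Figure D3:**
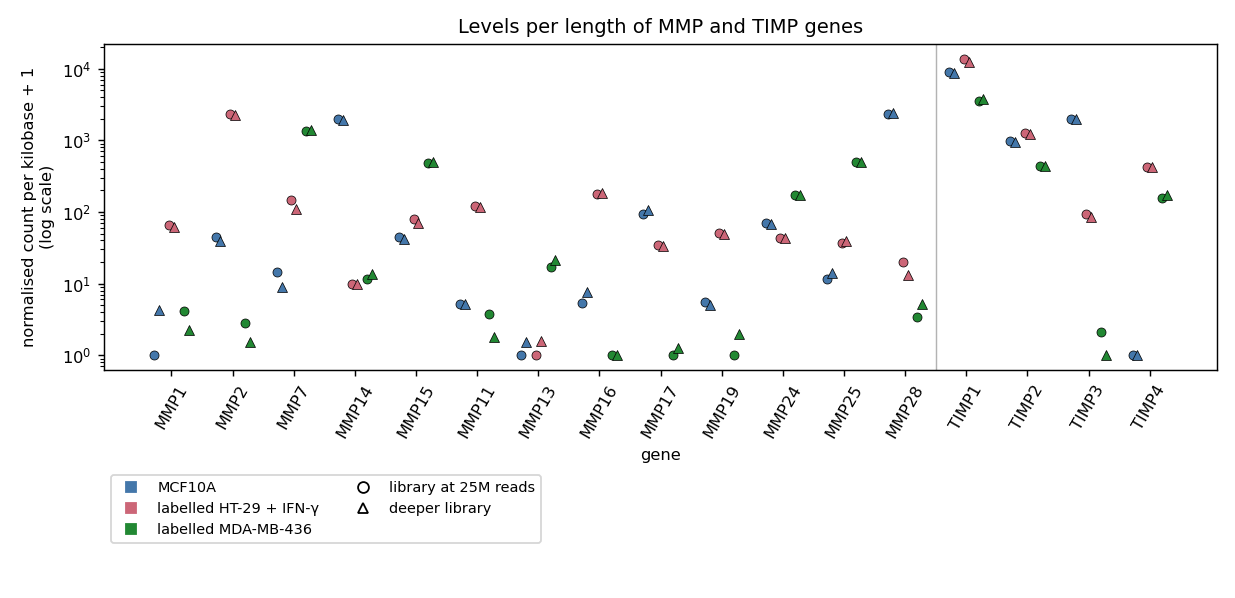
Normalised count per kilobase plus 1, on a log scale, for MMP genes with a mean level of at least 10 per kilobase in at least 1 line (left of the line; MMP9 and MMP10 were under it) and for TIMP1 to TIMP4; circles are 25M libraries and triangles deeper ones. With the lengths that RPKM implies, TIMP1 is the highest TIMP in every library, and the highest MMP differs between the lines (MMP28, MMP2 and MMP7).

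The other MMPs also differed between the lines. Among 17 other MMPs, 8 were tested, 2 of which reached the minimum in 1 line alone, and 3 were higher and 5 lower in the MDA-MB-436-labelled libraries than in MCF10A, with 4 higher and 2 lower in those labelled HT-29. Here and in the lists that follow, these counts stand beside 25.6% of all genes called higher and 23.7% lower in the first comparison, and 28.4% and 18.1% in the second. MMP28 averaged 4104 ± 28.6 in MCF10A (SD, n = 2 libraries here and below), 27.2 ± 8.25 in the HT-29-labelled libraries and 5.75 ± 2.31 in those labelled MDA-MB-436. MMP16 was high where MMP2 was, at 1134 ± 5.65 in the HT-29-labelled libraries against 35.4 ± 10.3 in MCF10A, and had 0 reads in those labelled MDA-MB-436. MMP11, stromelysin-3, and MMP19 also rose in the HT-29-labelled libraries over MCF10A, with log2 fold changes of 4.68 and 3.40. MMP25 was highest in the MDA-MB-436-labelled libraries, at 1756 ± 17.9 against 41.8 ± 6.15 in MCF10A (log2 fold change 5.37). MMP24 averaged 738 ± 9.77 there, and MMP13, collagenase-3, 48.7 ± 7.76 against 0.736 ± 1.04 in MCF10A. MMP17 fell in both carcinoma groups from 237 ± 19.8 in MCF10A, with log2 fold changes of -1.56 in the HT-29-labelled libraries and -7.55 in the others. TIMP4, the remaining inhibitor of the family, had 0 reads in MCF10A and averaged 692 ± 7.11 in the HT-29-labelled libraries and 268 ± 20.4 in those labelled MDA-MB-436. With the 0 reads of MCF10A set to a floor of 3, these were 595.1-fold and 236.0-fold higher.

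MMP1, MMP7 and MMP10 belong to a run of 9 neighbouring MMP genes on chromosome 11, in the order MMP7, MMP20, MMP27, MMP8, MMP10, MMP1, MMP3, MMP12 and MMP13. Only 3 of the 9 reached the minimum for testing: MMP7, MMP1 and MMP13. MMP7 and MMP13, at the ends of the run, were highest in the MDA-MB-436-labelled libraries, and MMP1 in those labelled HT-29. MMP3, next to MMP1, averaged 8.75 in the HT-29-labelled libraries, and MMP27 had 0 reads in all 6. None of the direct neighbours of these 3 genes reached the minimum.

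Genes listed as other MMP inhibitors or as inhibitors of plasminogen activation were counted next. Of 6 tested genes in the list of other MMP inhibitors, 6 were higher in the HT-29-labelled libraries than in MCF10A (2 of them reached the minimum in 1 line alone), and 2 were higher and 3 lower in those labelled MDA-MB-436. PCOLCE, in this list although it is the procollagen C-proteinase enhancer, averaged 14231 ± 685 in the HT-29-labelled libraries against 68.1 ± 12.3 in MCF10A. TFPI2, a Kunitz-type serine protease inhibitor of the matrix, averaged 5451 ± 12.2 against 5.02 ± 0.848, and the proteoglycan SPOCK1 3769 ± 75.5 against 112 ± 11.1. Inhibitors of plasminogen activation were 3 higher and 2 lower of 5 in the MDA-MB-436-labelled libraries, and 2 higher and 2 lower in those labelled HT-29. SERPINE2, an inhibitor of urokinase and thrombin, rose in both groups, by 4.39 (labelled HT-29) and 1.01 (labelled MDA-MB-436) on the log2 scale. SERPINB2, or PAI-2, averaged 958 ± 35.2 in MCF10A and had 0 reads in the MDA-MB-436-labelled libraries.

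Genes that activate proMMPs or hold MMPs at the cell surface were called in both directions. Of 11 tested activators, 5 were higher and 2 lower in the MDA-MB-436-labelled libraries than in MCF10A, and 4 were higher and 4 lower in those labelled HT-29. FURIN, the convertase that activates membrane-type MMPs inside the cell, averaged 4773 ± 61.3 in MCF10A, 3075 ± 61.8 in the HT-29-labelled libraries and 6130 ± 116 in those labelled MDA-MB-436, all within the fold minimum. ST14, the epithelial serine protease matriptase, averaged 7987 ± 88.0 in MCF10A, 2.59 ± 0.574 in the HT-29-labelled libraries and 14980 ± 716 in those labelled MDA-MB-436. PLAUR, the urokinase receptor, rose by 1.75 on the log2 scale in the MDA-MB-436-labelled libraries over MCF10A. Of 12 tested surface partners, 2 were higher and 5 lower in the MDA-MB-436-labelled libraries, and 1 was higher and 3 lower in those labelled HT-29. Over all genes 49.2% and 46.5% were called in these comparisons, and no result about the lists is read from these counts. BSG, the MMP inducer basigin, fell in both, with log2 fold changes of -1.81 (labelled MDA-MB-436) and -1.01 (labelled HT-29), as did the caveolin CAV1, with -10.26 and -2.01. CD44, the hyaluronan receptor that docks MMP9 and MMP14, fell in the MDA-MB-436-labelled libraries with a log2 fold change of -1.56.

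The related ADAM and ADAMTS proteases, which TIMP3 inhibits, were counted as well. Of 16 tested ADAMTS genes, 15 were higher and 0 lower in the HT-29-labelled libraries than in MCF10A, beside 28.4% and 18.1% of all genes. But 9 of the 16 reached the minimum for testing in 1 line alone, so the filter itself favoured a difference for these. No result about the list is read from these counts. In the MDA-MB-436-labelled libraries, 3 were higher and 7 lower. ADAMTS9 averaged 1329 ± 65.4 in the HT-29-labelled libraries against 15.4 ± 7.27 in MCF10A, and the procollagen protease ADAMTS2 642 ± 0.238 against 1.47 ± 2.08. ADAMTS6 rose in both groups, with log2 fold changes of 1.33 (labelled HT-29) and 1.93 (labelled MDA-MB-436). Of 9 tested ADAM genes, 4 were higher and 4 lower in the HT-29-labelled libraries, and 2 higher and 4 lower in those labelled MDA-MB-436. ADAM15 and ADAM9 fell in both, with log2 fold changes of -2.25 (labelled HT-29) and -1.91 (labelled MDA-MB-436) for ADAM15 and, in that order, -1.35 and -1.14 for ADAM9, while ADAM10 had log2 values of 0.19 and 0.27, under the fold minimum. The lysosomal cathepsins and legumain were 3 higher and 2 lower of 12 in the HT-29-labelled libraries, and 3 higher and 6 lower in those labelled MDA-MB-436. There CTSB, CTSD and CTSC fell, with log2 fold changes of -2.22, -1.201 and -1.74.

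Of 19 tested substrate genes, 13 were lower and 1 higher in the MDA-MB-436-labelled libraries than in MCF10A, and 7 were lower and 7 higher in those labelled HT-29. Among these 19, 3 reached the minimum for testing in 1 line alone. COL17A1, a hemidesmosome collagen, fell in both groups, with log2 fold changes of -9.19 (labelled HT-29) and -3.64 (labelled MDA-MB-436). LAMB3 fell in the HT-29-labelled libraries (-4.21) and had a log2 value of -0.01 in those labelled MDA-MB-436. Transcription factors of the families that bind MMP promoters were counted as well. Of 11 tested AP-1 genes, 7 were higher and 2 lower in the MDA-MB-436-labelled libraries than in MCF10A, and 6 higher and 2 lower in those labelled HT-29. JUN rose by 3.20 (labelled MDA-MB-436) and 2.90 (labelled HT-29) on the log2 scale, JUNB by 1.44 and 1.29 in that order, and FOSL1 had values of -0.02 and 0.52. Of 14 ETS genes, 6 were higher and 2 lower in the MDA-MB-436-labelled libraries, and 3 higher and 5 lower in those labelled HT-29. The epithelial ETS factors ELF3 and EHF averaged 28399 ± 720 and 15850 ± 279 in the MDA-MB-436-labelled libraries against 485 ± 5.72 and 1309 ± 45.1 in MCF10A, and the repressor ERF rose there by 1.31.

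**Figure D4:**
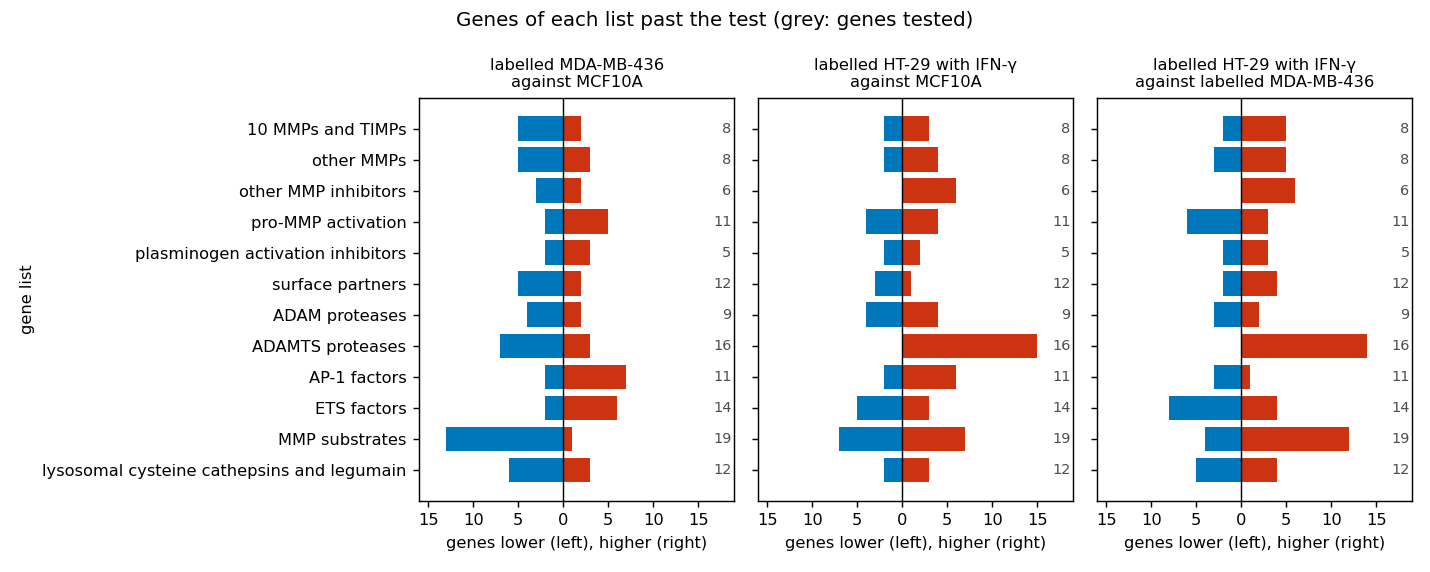
Number of genes of each list called lower (bars to the left) and higher (bars to the right) in the 3 comparisons; the grey number is how many genes of the list were tested. The ADAMTS bar reaches 15 of 16 in the HT-29-labelled libraries against MCF10A, and the substrate bar 13 of 19 lower in those labelled MDA-MB-436. Of these genes, 9 of the 16 and 3 of the 19 reached the minimum for testing in 1 line alone. Over all tested genes, 28.4% were called higher in the HT-29-labelled libraries and 23.7% lower in those labelled MDA-MB-436, each against MCF10A.

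For each member the gene of the lists and members with the nearest pattern was found among 156 genes, as a distance between log2 values centred over the 6 libraries. TIMP1 and TIMP2 were each other's nearest, at a distance of 0.379. MMP2 was nearest to MMP16 (1.39), MMP14 to MMP28 (2.61) and MMP1 to THBS2 (1.58), the last a matrix thrombospondin. MMP7 was nearest to ADAM28 (1.06), MMP15 to LGMN (1.27) and TIMP3 to COL4A6 (2.87). MMP9 was nearest to ITGB3 (1.07) and MMP10 to CTSD (1.09), at levels where few reads set the pattern. The 6 libraries come from 3 lines, so these distances describe the lines' order and no more.

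Fibroblast markers were read beside MMP2, which fibroblasts express strongly. Their summed level over 8 genes was 952 to 1009 in MCF10A, 1407 to 1427 in the HT-29-labelled libraries and 198 to 232 in those labelled MDA-MB-436, and 3 of the 6 tested were higher and 2 lower in the HT-29-labelled libraries than in MCF10A. PDGFRA, PDGFRB and COL1A1 were higher there (log2 fold changes 4.25, 1.47 and 1.27), while DCN, LUM and THY1 were at 0. PDGFRA, COL1A2 and THY1 were at 0 in the libraries labelled MDA-MB-436. Their part in the MMP2 difference was not tested. Between the deeper and the 25M libraries, 0 of 8 tested members differed (limma with line as a block, adjusted p alone), and 0% of all genes did. At an unadjusted p under 0.05 there were 0 members by limma, edgeR, DESeq2 and limma-voom, beside 284, 619, 46 and 642 of all tested genes, so few would be met among any 8 genes. An exact binomial test of reads within each line, 29 tests adjusted together, found 1 difference: TIMP1 was 8.73% lower in the HT-29-labelled deeper library (adjusted p = 3.94e-09), less than the gap to any other line. Recovered totals ran from 16.7 to 69.5M reads, so the shallower libraries set the limit for MMP1, MMP9, MMP10 and the low values of MMP2 and TIMP3.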

How the data were processed

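RNA of 3 lines was sequenced in 6 libraries. The submitters' processing notes name FastQC, STAR 2.2.0, HTSeq and hg19. The annotation used and the strandedness of counting were not given in the sources used here. Per the file headers, the authors deposited a normalised count and an RPKM value per symbol. Within a library the deposited normalised counts, a linear signal, were whole multiples of 1 step for 100% of values (tolerance 0.001). Whole reads recovered this way totalled 18.3 and 69.5M (MCF10A), 18.4 and 50.2M (labelled HT-29) and 16.7 and 56.4M (labelled MDA-MB-436). Symbols and RPKM, as deposited, did not line up in 3552 rows, TIMP1 to TIMP3 among them, until the RPKM column was read in case-insensitive order, and it was used only for the gene lengths it implies. Of the rows, 28 with symbols that read as dates were left out, 4 of them under repeated names, and 23340 were kept.

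The main test was limma with a trended, robust prior on log2(normalised count + 1). Its single fit took all 6 libraries (residual degrees of freedom: 3) and the genes at 10 or more in at least 2 libraries. Fold changes on this scale understate changes of low genes. Folds in words are ratios of pooled recovered reads with 95% exact intervals, which, like the floor of 3 reads over a group, cover counting error only. edgeR's quasi-likelihood test, DESeq2 and limma-voom on recovered reads, other scalings, pseudocounts and filters, thinning and leaving out libraries were alternatives. The scripts were tested on simulated data. DESeq2 was version 1.42.0, edgeR 4.0.16 and limma 3.58.1, in R 4.3.3.

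The members and lists were chosen with earlier results of these data known, as was the rule for naming genes: all members, marker genes for the label check, the 3 highest genes of each list, the other MMPs with a mean of at least 10 and the gene nearest to each member. Not every gene so chosen is reported here. Promoters are RefSeq's, GRCh38.p14; matches were made by symbol. Sampling alone gives a median chi-square of 0.455 between libraries of a line; MCF10A had 0.555, labelled HT-29 0.727 and labelled MDA-MB-436 0.689, all above it. They entered as 2 libraries a line, which may still be technical repeats of 1 culture.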

Additional observations from a re-analysis of the deposited data

Results flagged for a closer look

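MMP2, TIMP1 and TIMP2 moved in opposite directions from MCF10A in the carcinoma lines: both libraries labelled HT-29 lay above both MCF10A libraries, and both labelled MDA-MB-436 lay below. The difference between these changes, tested as the direct comparison of the carcinoma lines by limma over all genes, was 10.77 on the log2 scale for MMP2 (adjusted p = 1.26e-07), 1.85 for TIMP1 (adjusted p = 1.97e-08) and 1.49 for TIMP2 (adjusted p = 5.79e-09). The changes of TIMP1 and TIMP2 from MCF10A in the libraries labelled HT-29 were under the fold minimum. A call in the direct comparison was a condition of the flag, so the p-values above lend the flag no support.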

How the results depend on the processing

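Over 20 alternatives, each count of called members stayed within 1.5 times its main value. MMP1 in the libraries labelled MDA-MB-436 against MCF10A was the exception among directions: its log2 value of 0.88 became -0.64 with edgeR, -0.0820 with DESeq2, -0.0287 with limma-voom, -0.28 with the MCF10A libraries summed as 1 sample (chosen after seeing the data) and -0.57 without MCF10A replicate 1, which had 0 MMP1 reads. Without MCF10A replicate 2 it was 2.32 and became a call. It gave a value in 17 of the 20. MMP15 in the libraries labelled HT-29 against MCF10A passed with library-size scaling (1.11). The fall of TIMP3 in the libraries labelled HT-29 had adjusted p-values up to 0.0485, the highest with limma's treat. That fit, too, shared the spread of the libraries labelled MDA-MB-436. With no filter beyond 1 read, MMP9 was called by limma in all 3 line comparisons. Its log2 fold changes were -2.40, 1.31 and 3.71 (adjusted p = 0.00257, 0.0424 and 1.94e-04). A filter of 10 CPM tested 11138 genes and left 2424 higher and 2655 lower calls in the first comparison, 2209 and 2181 in the second and 2670 and 2637 in the third, where the filter on normalised counts left 3999 and 3702, 4442 and 2823, and 4675 and 3675. The replicate block, with depth class as the pairing, changed no call of a member: 2 higher and 5 lower, 3 and 2, and 5 and 2. Depth classes did not pair the libraries (correlations across genes of deeper minus 25M values -0.00282, 0.00731 and 0.0276). Reads at or under 13 in a line limit MMP1, MMP9, MMP10, MMP2 and TIMP3.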
